A study of Mus musculus with 76 samples.

Results

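The 7 genes described here act on peptide hormone precursors in the regulated secretory pathway: *Pcsk1*, *Pcsk2*, *Scg5*, *Pcsk1n*, *Cpe*, *Pam* and *Prcp*. They were chosen by name from the 56980 genes of the count table, and all 7 were found in it. They were read in 76 single neurons of the mouse arcuate nucleus, each recorded with a patch pipette whose content was then sequenced (Patch-seq). The neurons came from male Pomc-CreERT2;tdTomato;Pomc-eGFP mice, in which tamoxifen at 12 weeks of age turned on the red tdTomato reporter in cells with an active *Pomc* promoter, and eGFP under *Pomc* promoter elements marks cells in which these elements are active later. Cells with tdTomato and eGFP are called Pomc+ and cells with tdTomato but without eGFP are called Ghost. All cells thus share the same alleles and the same tamoxifen treatment, and they differ in eGFP and in 6 months on a chow diet (CD) or a high-fat diet (HFD), with 5 mice on each diet. The CD mice gave 23 Pomc+ and 15 Ghost cells, and the HFD mice 19 of each. The methods text names the mice without Pomc-eGFP, and both labels rest on reporters driven by *Pomc* elements, not on a measured *Pomc* transcript.

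A prohormone leaves the endoplasmic reticulum as a long inactive chain. The proprotein convertases PC1/3, encoded by *Pcsk1*, and PC2, encoded by *Pcsk2*, cut it after pairs of basic residues. PC1/3 releases ACTH from the POMC precursor, and PC2 carries the cutting further towards alpha-MSH, the peptide through which these neurons restrain feeding. Each convertase has a small partner: the chaperone 7B2, encoded by *Scg5*, is needed for PC2 to mature, and proSAAS, encoded by *Pcsk1n*, can inhibit PC1/3. Carboxypeptidase E, encoded by *Cpe*, trims the basic residues left at the cut end, and peptidylglycine alpha-amidating monooxygenase, encoded by *Pam*, turns a terminal glycine into an amide. Prolylcarboxypeptidase, encoded by *Prcp*, removes the last residue of alpha-MSH and thereby inactivates it.

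No mouse is named for any cell, so each group of cells with 1 label and 1 diet was counted as 1 sample. Differences between groups are therefore given as ratios of means with no test, and the intervals on shares are exact 95% binomial (Clopper-Pearson) intervals that cover counting error only. Counts are of reads and not of molecules. Total counts per cell ran from 4057 to 1452605 with a median of 322652, and the number of genes with a count from 548 to 9808. Levels are CPM, the count of a gene divided by all counts of the cell and multiplied by 1000000, averaged over the cells of a group. Genes counted in every one of the 76 cells numbered 7 and took 43.7% of all counts; neither a processing gene nor *Pomc* was among them. A cell without a count of a gene may still express it.

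In GRCm38 coordinates of the GENCODE M21 annotation, *Pcsk1* (ENSMUSG00000021587) spans chromosome 13 from 75089826 to 75134861 on the plus strand and *Pcsk2* (ENSMUSG00000027419) spans chromosome 2 from 143546156 to 143816285 on the plus strand. *Scg5* (ENSMUSG00000023236) lies on the minus strand of chromosome 2 from 113776362 to 113829121, and *Pcsk1n* (ENSMUSG00000039278) on the plus strand of chromosome X from 7919822 to 7924410. *Cpe* (ENSMUSG00000037852) lies on the minus strand of chromosome 8 from 64592542 to 64693054, *Pam* (ENSMUSG00000026335) on the minus strand of chromosome 1 from 97795114 to 98095646, and *Prcp* (ENSMUSG00000061119) on the plus strand of chromosome 7 from 92874470 to 92934583. Some exonic bases are shared with other genes. *Pcsk2* shares 260 with the antisense gene *Pcsk2os1*, which had 415 counts in 9 cells, and *Pam* shares 188 with *B230216N24Rik* on its own strand, which had 114 counts in 7 cells. *Pcsk1n* shares 135 with *Eras*, and *Pcsk2* 137 with *Pcsk2os2*, and these overlapping genes had no count. Whether the counting used strand is not given in the sources used here, so reads in these shared bases cannot be assigned with certainty.

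The bases just upstream of *Pomc*, of the convertase that makes the first cuts and of the chaperone gene that followed *Pomc* most closely per cell are given here from RefSeq on GRCm38.p6 and in the direction of transcription. They are shown because cyclic AMP signalling acts on neuroendocrine genes through a short DNA element that can be looked for in these letters, and each ends before the first annotated exon. Capitals mark TGACG, the short form of the cyclic AMP response element, searched as TGACG and its reverse complement CGTCA; the full element TGACGTCA holds the short form on each strand and counts as 2 of them.

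Pomc, chr12:3954695-3954944, plus strand: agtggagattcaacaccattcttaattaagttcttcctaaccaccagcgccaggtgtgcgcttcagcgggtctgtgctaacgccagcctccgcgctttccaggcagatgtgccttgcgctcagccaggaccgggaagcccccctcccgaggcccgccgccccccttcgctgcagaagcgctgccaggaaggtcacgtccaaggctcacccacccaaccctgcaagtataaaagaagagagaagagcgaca
Pcsk1, chr13:75089607-75089825, plus strand: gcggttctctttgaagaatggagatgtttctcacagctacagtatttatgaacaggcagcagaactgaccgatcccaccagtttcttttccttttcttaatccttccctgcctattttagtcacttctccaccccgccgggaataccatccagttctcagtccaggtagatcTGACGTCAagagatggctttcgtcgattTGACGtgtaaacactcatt
Scg5, chr2:113829122-113829341, minus strand: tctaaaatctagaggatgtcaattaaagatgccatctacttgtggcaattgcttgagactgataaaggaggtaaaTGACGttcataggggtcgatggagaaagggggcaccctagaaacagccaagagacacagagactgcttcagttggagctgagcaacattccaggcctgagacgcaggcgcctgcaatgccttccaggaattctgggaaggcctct

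The table of promoter windows of 300 bases, from 250 before to 50 after each start, matched 6 of the 7 genes. The *Pcsk1* window held 1 full element, which 1.79% of all 32851 windows hold. At least 1 short form stood in the windows of *Pcsk1*, *Pcsk2* and *Scg5*, and in 20.8% of all windows. The windows of *Pcsk1n*, *Pam*, *Prcp* and *Pomc* held none. These are matches of letters and no binding was measured.

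Detection split the genes into a group read in most cells and a group read in a minority. *Pcsk1n* had a count in 73 of 76 cells (96.1%, interval 88.9% to 99.2%), *Cpe* in 66 (86.8%, 77.1% to 93.5%) and *Scg5* in 48 (63.2%, 51.3% to 73.9%). The amidating enzyme gene *Pam* had a count in 34 cells (44.7%, 33.3% to 56.6%). Both convertase genes were read in about the same number of cells, *Pcsk1* in 26 (34.2%, 23.7% to 45.99%) and *Pcsk2* in 24 (31.6%, 21.4% to 43.3%). *Prcp*, the alpha-MSH degrading enzyme gene, had a count in only 9 cells (11.8%, 5.56% to 21.3%). For comparison, *Pomc* and *Cartpt*, which encode the peptide precursors of these neurons, each had a count in 73 cells.

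Depth moved these shares for the genes with few counts. With each of the 68 cells of at least 40000 counts thinned to that number, *Pcsk1n* was read in 99.0%, *Cpe* in 83.8% and *Scg5* in 58.5% of cells. The thinned shares were 33.8% for *Pam*, 29.5% for *Pcsk1*, 21.3% for *Pcsk2* and 9.34% for *Prcp*. The order of the genes was the same at both depths.

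Between the groups the intervals of every gene's share overlapped. *Pcsk1* had a count in 9 of 23 Pomc+ cells on CD (39.1%, 19.7% to 61.5%), 8 of 15 Ghost cells on CD (53.3%, 26.6% to 78.7%), 5 of 19 Pomc+ cells on HFD (26.3%, 9.15% to 51.2%) and 4 of 19 Ghost cells on HFD (21.1%, 6.05% to 45.6%). *Scg5* had a count in 16, 10, 10 and 12 cells of the same groups in that order, *Pcsk2* in 8, 5, 5 and 6, and *Pam* in 10, 7, 8 and 9. *Cpe* had one in 22, 12, 16 and 16 cells and *Pcsk1n* in 23, 14, 19 and 17. The cells without *Pcsk1n* were Ghost cells with only 4057, 12900 and 12847 counts in total, while a Pomc+ cell with 10534 counts had it. *Prcp* was read in 5 and 2 Pomc+ cells and in 1 Ghost cell on each diet.

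**Figure D1:**
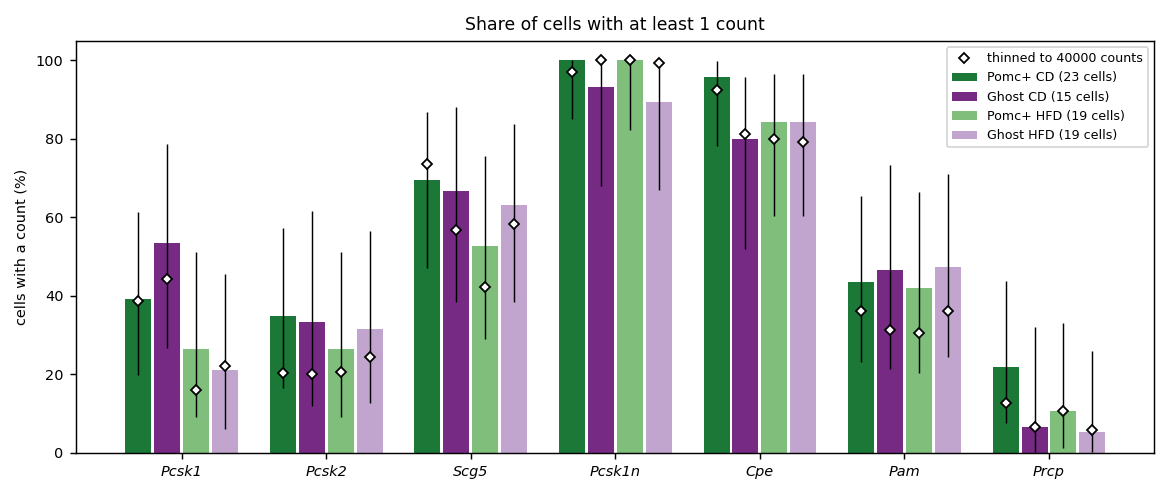
Share of cells with at least 1 count of each gene (y axis, percent) in the 4 groups. Bars give the share at full depth, lines the exact 95% binomial interval and diamonds the mean share over 20 draws with each cell thinned to 40000 counts; *Pcsk1n* and *Cpe* stand at 80% or above in every group, and the intervals of the groups overlap for each gene.

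To compare levels between genes, CPM was divided by the exonic length of each gene in GENCODE M21. Per kilobase, *Pcsk1n* had the highest mean of the 7 over all cells, 329 CPM (SD 257, n = 76 cells), followed by *Cpe* with 224 (SD 204) and *Scg5* with 115 (SD 171). *Pcsk1* followed with 10.2 (SD 28.2), *Pcsk2* with 4.91 (SD 12.5), *Pam* with 4.06 (SD 9.34) and *Prcp* with 1.41 (SD 5.73). *Pomc* itself stood at 4965 CPM per kilobase (SD 6770). Within single cells *Pcsk1n* was above *Cpe* in 53 cells and below it in 22, and *Cpe* was above *Scg5* in 55 and below it in 14. The convertase genes did not separate, with *Pcsk1* above *Pcsk2* in 20 cells, below it in 17 and level at 0 in 39. *Pcsk2* and *Pam*, next in the order of means, stood the other way round in single cells, with *Pam* higher in 27 and lower in 14. Per kilobase, the means of the trimming enzyme gene and of both partner genes thus stood above those of both convertase genes.

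The first comparison asks whether neurons without eGFP carry less of the processing machinery than Pomc+ neurons on the same diet. On CD, 5 of the 7 genes had a lower mean CPM in Ghost cells, *Pcsk2*, *Scg5*, *Cpe*, *Pam* and *Prcp*, against 53.6% of the 9130 genes with a count in at least 10 cells. *Pcsk1* and *Pcsk1n* had a higher mean in Ghost cells. The genes past 2-fold were *Pcsk2* and *Prcp* in the lower direction, where 27.2% of all genes stood, and *Pcsk1* in the higher direction, where 20.8% stood. *Prcp*, with a count in 9 cells, is not among the 9130 genes but is counted among the 7. Its log2 ratio of -1.39 rests on 1 Pomc+ cell at 86.3 CPM, without which it was -0.0062. The median log2 ratio of the 7 genes was -0.61, and that of all genes -0.12.

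*Cpe*, the carboxypeptidase gene, had a lower mean in Ghost cells on CD. It ran from 0 over a median of 871 to 1702 CPM in Pomc+ cells, and from 0 over 368 to 1068 CPM in Ghost cells. The groups overlap over most of their range, and the middle of the Ghost cells is low. The means were 778 (SD 495, n = 23 cells) and 448 CPM (SD 402, n = 15 cells), 1.74-fold lower in Ghost cells, or -0.80 on the log2 scale. With any 1 cell left out the log2 ratio stayed between -0.95 and -0.70, and 12 of 12 other ways of computing it over these cells gave a lower value in Ghost cells. The summed CPM of 7 astrocyte genes also had a lower mean in Ghost cells, 492 against 898 CPM, with ranges of 0 to 2110 and 0 to 4321 CPM, and its rho with *Cpe* over all cells was 0.32; its part in the *Cpe* difference was not tested. *Pomc* stood in the same direction, with means of 11652 CPM in Pomc+ and 6296 CPM in Ghost cells.

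The means of the convertase genes *Pcsk1* and *Pcsk2* pointed in opposite directions on CD, that of *Pcsk1* through 1 cell only. *Pcsk2* ran from 0 over a median of 0 to 325 CPM in Pomc+ cells and from 0 over 0 to 96.4 CPM in Ghost cells. Its mean was 44.6 CPM (SD 92.4) against 12.1 CPM (SD 29.04), 3.69-fold lower in Ghost cells. Without the highest Ghost cell the difference was 7.36-fold, and without the highest Pomc+ cell the log2 ratio of -1.88 was -1.40. *Pcsk2* had a count in 8 of 23 Pomc+ and 5 of 15 Ghost cells. In the cells numbered 658 to 669 alone *Pcsk2* was higher in Ghost cells, with a log2 ratio of 1.34. In *Pcsk1* the median was 0 in Pomc+ cells and 4.06 CPM in Ghost cells, with highest values of 536 and 1165 CPM. The mean was 60.2 CPM (SD 123) in Pomc+ and 132 CPM (SD 303) in Ghost cells, 2.19-fold higher. The Ghost cell at 1165 CPM held 58.8% of the summed *Pcsk1* of its group, and without it the ratio was 0.967, so the higher mean of *Pcsk1* in Ghost cells rests on 1 cell.

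For the convertase partners, *Scg5* ran from 0 over a median of 226 to 1038 CPM in Pomc+ cells and from 0 over 23.9 to 1097 CPM in Ghost cells on CD. The means were 307 CPM (SD 317) and 202 CPM (SD 334), 1.52-fold lower in Ghost cells. The upper quartile of the Ghost cells was 255 CPM, and the highest Ghost cell lay above the highest Pomc+ cell. Without the highest Ghost cell the difference was 2.23-fold. *Pcsk1n*, unlike *Scg5* and *Cpe*, had a higher mean in Ghost cells on CD. It ran from 23.5 over a median of 394 to 1871 CPM in Pomc+ cells and from 0 over 765 to 1733 CPM in Ghost cells, with means of 581 CPM (SD 519) and 783 CPM (SD 506), 1.35-fold higher in Ghost cells. That direction did not hold under every scaling, since the deposited normalized values put *Pcsk1n* lower in Ghost cells, at -0.62 on the log2 scale. *Pam* had means of 65.7 CPM in Pomc+ and 49.9 CPM in Ghost cells on CD, and a single Pomc+ cell at 773 CPM held 51.2% of the Pomc+ sum; without it *Pam* was 1.49-fold higher in Ghost cells.

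On HFD the genes differed between the labels in both directions. Of the 7 genes, 3 had a lower mean in Ghost cells, *Pcsk1*, *Pcsk2* and *Prcp*, where 56% of all genes did. None was past 2-fold in either direction, where 28.8% of all genes were past it lower and 18.4% higher. The median log2 ratio was 0.03 for the 7 genes and -0.19 for all genes, and the single ratios ran from -0.87 for *Pcsk1* to 0.85 for *Scg5*. *Cpe* had means of 511 CPM (SD 467) in Pomc+ and 534 CPM (SD 681) in Ghost cells, and *Pcsk1n* of 775 CPM (SD 543) and 789.8 CPM (SD 680). The highest *Cpe* value of any cell, 3023 CPM, belonged to a Ghost cell on HFD, and without it the *Cpe* ratio was 0.774. That value came from 39 counts in a cell with 12900 counts in total. Without the cells under 40000 counts the *Cpe* log2 ratio was -0.47. *Pomc* had means of 3414 CPM in Pomc+ and 3686 CPM in Ghost cells on HFD, with medians of 2206 and 4171 CPM. Its log2 ratio was 0.11, but -0.87 with the mean of log2(CPM + 1).

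*Scg5* had the largest log2 ratio of the 7 genes upwards in Ghost cells on HFD, at 0.85. It ran from 0 over a median of 6.93 to 400.3 CPM in Pomc+ cells and from 0 over 26.9 to 657 CPM in Ghost cells. Its means were 68.3 CPM (SD 124) and 123 CPM (SD 192), 1.80-fold higher in Ghost cells. Over these cells, 11 of 11 other ways of computing it gave the same direction. Within runs of cell numbers it did not hold throughout. The log2 ratio of *Scg5* was 1.58 in the cells numbered 637 to 657 and -2.15 in those numbered 713 to 720. *Pam* had means of 27.1 CPM in Pomc+ and 47.2 CPM in Ghost cells, a log2 ratio of 0.80 that ran from 0.32 to 1.66 with 1 cell left out, the highest without the Pomc+ cell at 247 CPM, and that was -0.10 in the deposited normalized values. *Pcsk1* had means of 32.7 and 17.9 CPM, a log2 ratio of -0.87 that ran from -1.80 to -0.28 with 1 cell left out and was 0.30 with summed counts. *Pcsk2* had means of 51.4 and 40.4 CPM. Without the Pomc+ cell at 496 CPM, *Pcsk2* was 1.52-fold higher in Ghost cells, so no direction is given for it.

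**Figure D2:**
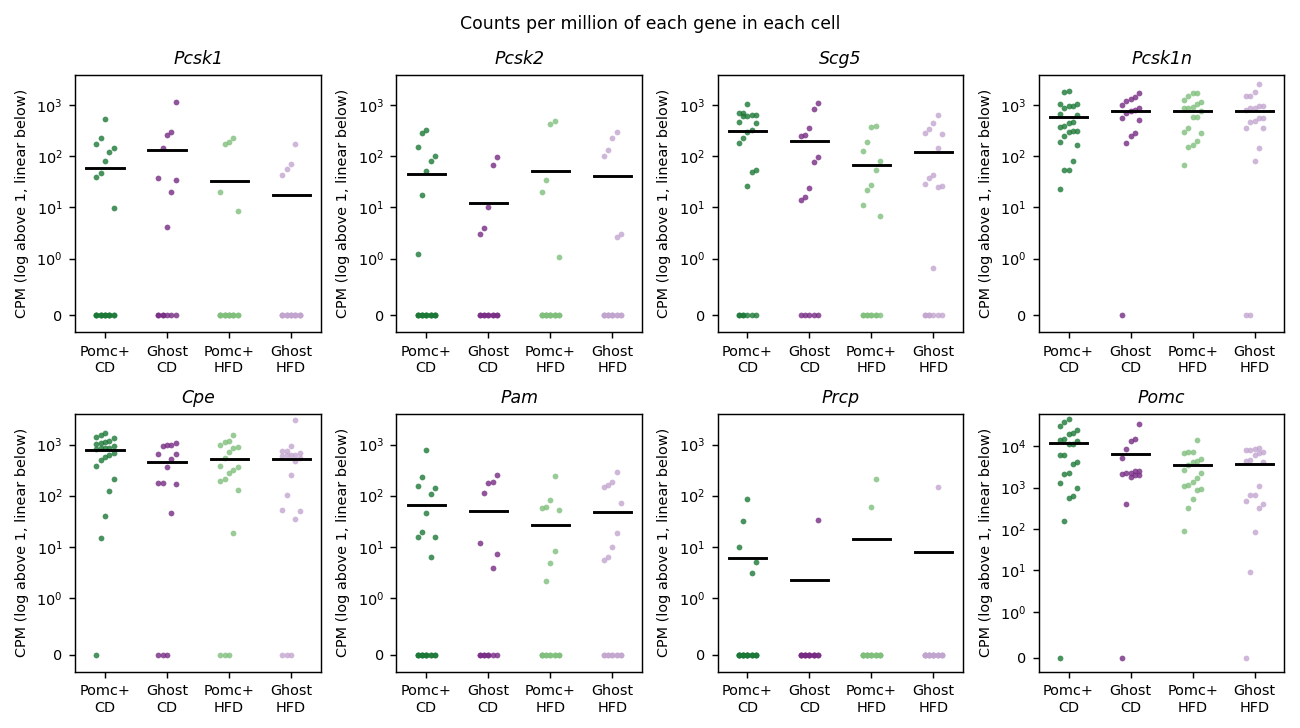
CPM of each of the 7 genes and of *Pomc* in each cell (points; y axis logarithmic above 1 and linear below), by group, with the group mean as a black line. *Pcsk1n* and *Cpe* have few cells at 0, the convertase genes have most cells at 0, and *Scg5* in Pomc+ cells has a mean of 307 CPM on CD and 68.3 CPM on HFD.

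The second comparison asks what 6 months of HFD went with in cells of the same label. In Pomc+ cells 4 of the 7 genes had a lower mean on HFD, *Pcsk1*, *Scg5*, *Cpe* and *Pam*, against 47.5% of all genes. *Scg5* and *Pam* were past 2-fold lower, where 19.1% of all genes stood, and *Prcp* was past 2-fold higher, where 23% stood. The median log2 ratio was -0.60 for the 7 genes and 0.07 for all genes.

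*Scg5*, the gene of the PC2 chaperone, differed most between diets in Pomc+ cells. Its mean of 307 CPM on CD stood against 68.3 CPM on HFD, 4.50-fold lower, and its median of 226 CPM against 6.93 CPM. The HFD cells stayed at or below 400.3 CPM, while the upper quartile of the CD cells was 612 CPM. The log2 ratio of -2.17 stayed between -2.62 and -2.005 with any 1 cell left out, and 12 of 12 other ways of computing it were past 2-fold in the same direction. Summed over cells, 4674 counts on CD gave 454 CPM of the summed counts (exact Poisson interval 441 to 467) and 527 counts on HFD gave 60.6 (55.5 to 66.01). These intervals cover counting error only, since amplified reads are not independent molecules, and 3 of the 23 CD cells held 932, 877 and 678 of the CD counts. *Pomc* was lower with it, with means of 11652 and 3414 CPM, 3.41-fold lower on HFD. Microglial transcripts also differed between diets: the summed CPM of 8 microglial genes had a mean of 240.4 on CD and 1632 on HFD in Pomc+ cells, with 6 and 8 of the 8 genes read and ranges of 0 to 2509 and 0 to 12557. Its rho with *Scg5* over all cells was -0.14, and its part in the *Scg5* difference was not tested.

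The other genes differed less between diets in Pomc+ cells. *Cpe* had a mean of 778 CPM on CD and 511 CPM on HFD, 1.52-fold lower, with a range of -0.78 to -0.52 on the log2 scale with 1 cell left out. *Pcsk1* was 1.84-fold lower on HFD, and 1.18-fold lower without the CD cell at 536 CPM. *Pam* was 2.42-fold lower, and 1.24-fold lower without the CD cell at 773 CPM. *Pcsk1n* stood higher on HFD, at 775 against 581 CPM, but lower in the deposited normalized values, at -0.36 on the log2 scale. *Pcsk2* had means of 44.6 and 51.4 CPM, with 1.67-fold less on HFD once the cell at 496 CPM was left out. The *Prcp* difference rests on 1 HFD cell at 208 CPM, which held 77.3% of the sum of its group.

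In Ghost cells 3 of the 7 genes had a lower mean on HFD, *Pcsk1*, *Scg5* and *Pam*, against 50.8% of all genes. *Pcsk1* was past 2-fold lower, where 25.5% of all genes stood, and *Pcsk2* and *Prcp* were past 2-fold higher, where 26.1% stood. The median log2 ratio was 0.01 for the 7 genes and -0.03 for all genes. *Pcsk1* had means of 132 CPM on CD and 17.9 CPM on HFD, 7.36-fold lower, and 3.25-fold lower without the CD cell at 1165 CPM; with 1 cell left out the log2 ratio ran from -3.82 to -1.70. All 11 other ways of computing this ratio were past 2-fold in the same direction, and *Pcsk1* was read in 8 of 15 Ghost cells on CD and in 4 of 19 on HFD. Its medians were 4.06 CPM on CD and 0 CPM on HFD. *Pcsk2* was the reverse, with means of 12.1 and 40.4 CPM, 3.35-fold higher on HFD, or 1.74 on the log2 scale, which ran from 1.12 to 2.74 with 1 cell left out and was 0.41 with the mean of log2(CPM + 1), although it was read in 5 of 15 and 6 of 19 cells. *Pcsk1n* had nearly equal means of 783 and 789.8 CPM. *Cpe* had means of 448 CPM on CD and 534 CPM on HFD, a log2 ratio of 0.25 that was -0.18 without the HFD cell at 3023 CPM. *Scg5* had means of 202 CPM on CD and 123 CPM on HFD, a log2 ratio of -0.71 that was -0.16 without the CD cell at 1097 CPM. Its medians were 23.9 CPM on CD and 26.9 CPM on HFD. The 8 microglial genes summed to a mean of 226 CPM on CD and 1520.0 CPM on HFD in Ghost cells, and their part in the *Pcsk1* difference was not tested. Whether *Scg5* differs more between diets in Pomc+ than in Ghost cells was not tested.

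**Figure D3:**
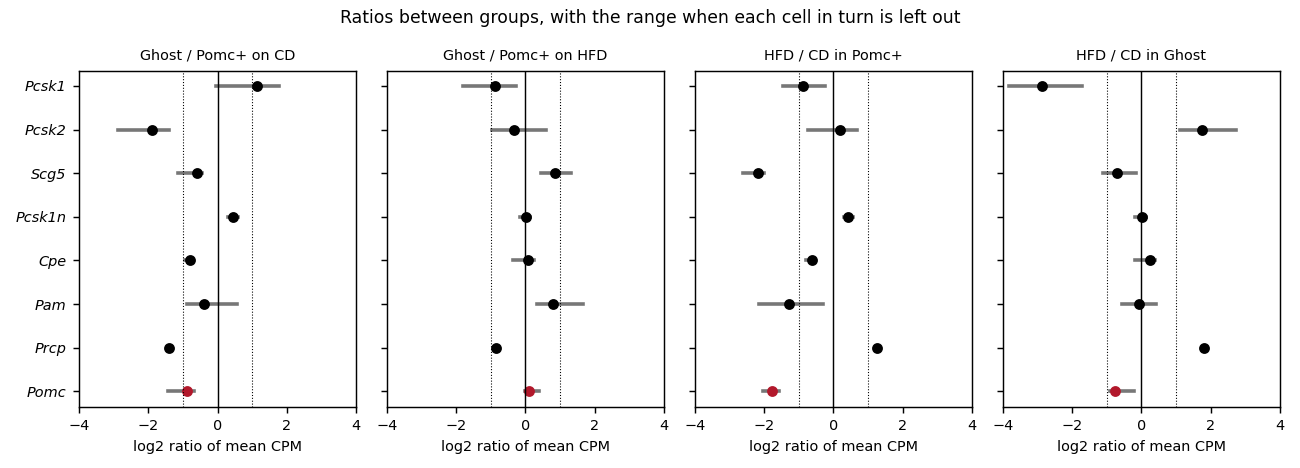
Log2 ratio of mean CPM (x axis) for the 7 genes and *Pomc* (red) in the 4 comparisons, as Ghost over Pomc+ and HFD over CD. Grey lines give the range when each cell in turn is left out, which is not drawn for *Prcp* because 1 cell holds all its counts in each Ghost group, and dotted lines mark 2-fold; *Scg5* in Pomc+ cells and *Pcsk1* in Ghost cells lie beyond 2-fold lower on HFD over the whole range.

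In the order of the cell numbers in the labels, the cells were cut at each change of diet, which gave 8 stretches. The labels name no such stretches, and the meaning of the numbers is not stated. *Scg5* differed between these stretches within Pomc+ cells on CD. It had a count in 15 of 15 such cells numbered up to 692 (100%, 78.2% to 100%) and in 1 of 8 cells numbered 699 to 712 (12.5%, 0.316% to 52.7%). The means in the 4 CD stretches, in order of number, were 779, 399.6, 309.8 and 37.3 CPM. On HFD the 4 means were 54.3 CPM in 10 cells, 98.4 CPM in 3, 0 CPM in 1 and 92.1 CPM in 5. The means of the first 3 CD stretches thus lay above the mean of each HFD stretch, and that of the last CD stretch lay below 3 of the HFD means. This stretch was set apart after its values were seen. Its Pomc+ cells had a median of 1682.5 genes and 146880 counts, against 3897 genes and 516450 counts in the other Pomc+ cells on CD.

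Other genes were also low in the Pomc+ cells numbered 699 to 712. *Pomc* had a mean of 2053 CPM in these 8 cells and 16772 CPM in the other 15, *Pcsk1n* of 211 and 779 CPM and *Cpe* of 405 and 977 CPM. *Pcsk1* and *Pam* each had a count in 1 of the 8 cells, against 8 and 9 of the 15. *Pcsk2* did not share this pattern, with a count in 3 of the 8 and 5 of the 15 cells. Among Ghost cells, *Scg5* had a count in 3 of the 4 cells of this stretch and in 7 of the 11 others on CD. Its means there were 160 and 217 CPM. *Pomc* had means of 3181 and 7429 CPM in the same Ghost cells, *Pcsk1n* of 263 and 973 CPM and *Cpe* of 406 and 463 CPM. Without this stretch the *Scg5* log2 ratio between diets in Pomc+ cells was -2.72 and that of *Cpe* -0.93, and *Pcsk1n* went from 0.42 to -0.01. Between labels on CD, *Cpe* then stood at -1.08 and *Scg5* at -1.06. In Ghost cells the *Pcsk1* means of the CD stretches, in order of number, were 13.8, 305, 103 and 76.65 CPM. Those of the HFD stretches were 22.1, 0, 10.6 and 18.5 CPM, the value of 0 from 1 cell. The first CD mean thus lay below the first and the last HFD mean. Because the stretches were cut at changes of diet, each holds 1 diet only, so diet and stretch cannot be told apart.

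The labels were also compared within stretches that hold at least 3 cells of each. On CD, where 4 stretches qualify, no gene had 1 direction in all of them. *Cpe*, *Pam* and *Prcp* were lower in Ghost cells in 3 of 4 stretches, *Pcsk1* and *Pcsk1n* higher in 3 of 4, and *Scg5* and *Pcsk2* lower in 2 of 4. Some of these directions rest on few cells. In the cells numbered 699 to 712, *Pam*, *Prcp* and *Pcsk2* had a count in 1, 1 and 3 Pomc+ cells and in no Ghost cell. In those numbered 658 to 669, *Prcp* had one in 2 Pomc+ cells and in no Ghost cell. In those numbered 684 to 692, *Prcp* had one in 1 cell of each label, and *Pcsk2* in 2 Ghost cells and no Pomc+ cell. In the first stretch, with 3 cells of each label, all 7 genes were past 2-fold lower in Ghost cells, *Prcp* with a count in 1 Pomc+ cell and in no Ghost cell. *Scg5* had means of 779 and 57.1 CPM there. On HFD only 2 stretches qualify. *Pam* was higher and *Pcsk2* lower in Ghost cells in both, and the other 5 genes had opposite directions in these stretches. In the cells numbered 713 to 720, *Pcsk2* had a count in 1 Pomc+ cell and in no Ghost cell. The HFD stretches that do not qualify stood the other way for *Pcsk2*. Its means in Ghost and Pomc+ cells were 132 and 0 CPM in the cells numbered 670 to 673, and 58.5 and 0 CPM in those numbered 693 to 698.

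**Figure D4:**
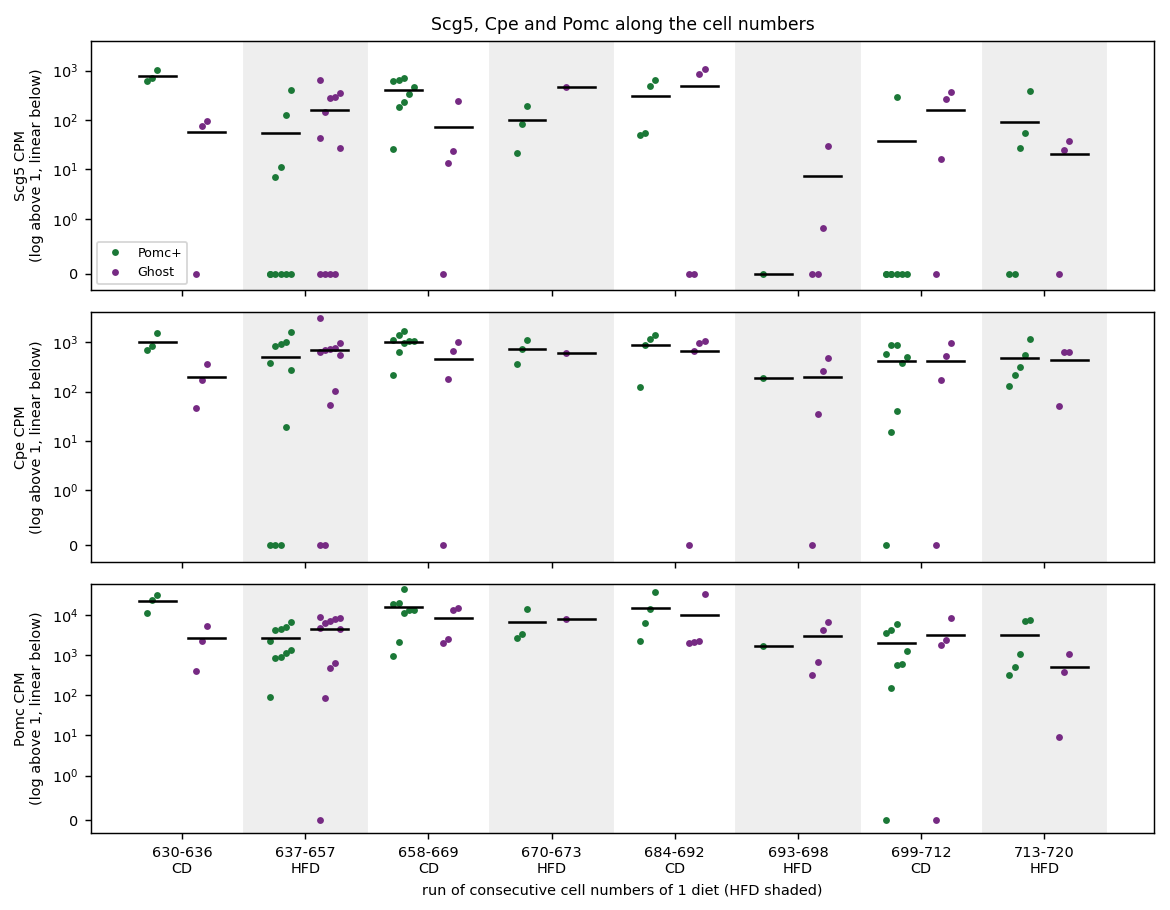
CPM of *Scg5*, *Cpe* and *Pomc* (y axes logarithmic above 1 and linear below) in each cell along the 8 stretches of consecutive cell numbers (x axis, HFD shaded), with Pomc+ cells in green, Ghost cells in purple and means as black lines. *Scg5* has a count in every Pomc+ cell of the first 3 CD stretches and in 1 of 8 of the last.

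The genes were next set against *Pomc* in the same cell, since the enzymes act on the POMC precursor in the granules of the cell that makes it. Over the 76 cells all 7 genes had a positive Spearman correlation with *Pomc*, as did 96.2% of all genes. *Scg5* had the highest rho, 0.57, followed by *Pcsk1n* with 0.47, *Pcsk1* with 0.45, *Cpe* with 0.43, *Pam* with 0.37, *Prcp* with 0.34 and *Pcsk2* with 0.12. Over all genes with a count in at least 10 cells the median rho with *Pomc* was 0.23 and the 90th percentile 0.38; over the 1582 with a count in at least 38 cells these were 0.27 and 0.44. *Scg5*, *Pcsk1n* and *Pcsk1* were above the last of these, although *Pcsk1* itself was read in fewer cells.

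Depth is shared by both sides of these correlations. The number of genes with a count, a measure of how much of a cell was read, had a rho of 0.49 with *Pomc* and of 0.31 to 0.59 with the 7 genes. Given that number, the partial rank correlation with *Pomc* was 0.40 for *Scg5*, 0.36 for *Pcsk1n*, 0.34 for *Cpe* and 0.28 for *Pcsk1*. It was 0.22 for *Prcp*, 0.14 for *Pam* and -0.13 for *Pcsk2*. With CPM computed without the 7 genes counted in every cell, *Cpe* had a rho of 0.13 and *Pcsk1n* of 0.20, while *Scg5* had 0.46. Thinned to 40000 counts, *Scg5* had 0.56 and *Pcsk2* 0.22.

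Within the groups the relation was uneven. In Pomc+ cells on CD, rho with *Pomc* was 0.78 for *Scg5*, 0.76 for *Pcsk1n*, 0.65 for *Pcsk1* and 0.65 for *Pam* (n = 23 cells). In Pomc+ cells on HFD the same values were 0.28, 0.21, 0.54 and 0.17 (n = 19 cells). *Cpe* had 0.72 in Ghost cells on CD (n = 15 cells), 0.46 in Ghost cells on HFD (n = 19 cells), 0.45 in Pomc+ cells on CD and 0.01 in Pomc+ cells on HFD. The Pomc+ cells on CD include the stretch in which *Pomc* and most of the 7 genes were low together.

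Relative to the mean of *Pomc*, the means of *Pcsk1n* and *Cpe* stood higher on HFD than on CD. Per 1000 CPM of *Pomc* in the group mean, *Pcsk1n* had 49.9 CPM in Pomc+ and 124 CPM in Ghost cells on CD, and 227 and 214 CPM on HFD. *Cpe* had 66.8 and 71.1 CPM on CD, and 149.8 and 145 CPM on HFD. *Scg5* kept closer to *Pomc*, with 26.4 and 32.1 CPM on CD and 20.02 and 33.4 CPM on HFD. *Pcsk2* had 3.82 and 1.92 CPM on CD and 15.1 and 10.97 CPM on HFD, and *Pcsk1* had 5.17 and 20.97 CPM on CD and 9.59 and 4.87 CPM on HFD. These ratios carry the lower *Pomc* mean on HFD in their denominator. In Ghost cells on CD, 1 cell at 34418 CPM held 36.4% of the summed *Pomc*. The Ghost medians of *Pomc* were 2291 CPM on CD and 4171 CPM on HFD. Those of *Pcsk1n* were 765 and 565 CPM and those of *Cpe* 368 and 552 CPM. By medians, neither gene thus stood higher relative to *Pomc* on HFD in Ghost cells.

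**Figure D5:**
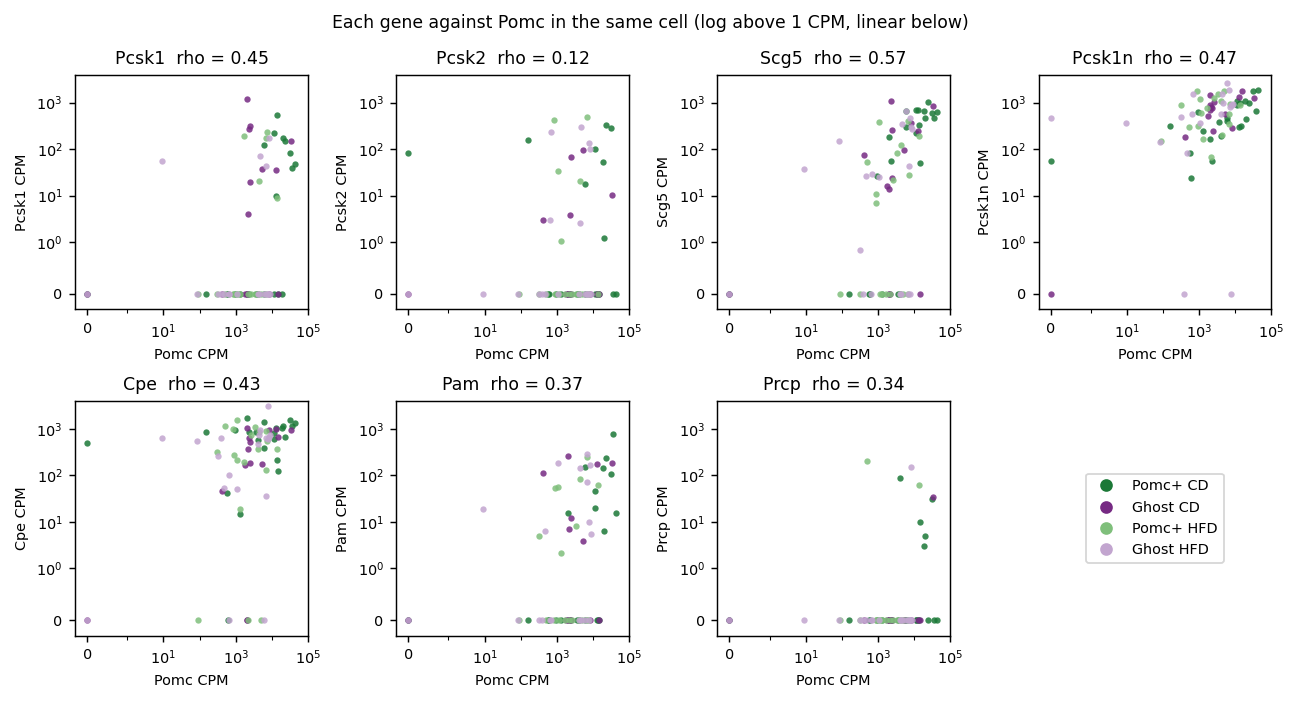
CPM of each of the 7 genes (y axes) against CPM of *Pomc* (x axes) in the 76 cells, both logarithmic above 1 and linear below, coloured by group, with Spearman's rho over all cells. *Scg5* has the highest rho, 0.57, and *Pcsk2* the lowest, 0.12, and many cells are at 0 for both convertase genes.

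Complete processing needs the enzymes in the same cell. *Pcsk1* and *Pcsk2* were counted together in 13 of 76 cells (17.1%, 9.43% to 27.5%), *Pcsk1* alone in 13, *Pcsk2* alone in 11 and neither in 39 (51.3%, 39.6% to 62.96%). Cells with both numbered 5 of 23 and 4 of 15 in Pomc+ and Ghost cells on CD, and 2 of 19 in each label on HFD. Of the 24 cells with *Pcsk2*, 19 also had its chaperone gene *Scg5*, which was read in 48 cells. All 26 cells with *Pcsk1* had *Pcsk1n*, a gene read in 73 of the 76 cells. *Cpe* and *Pam*, which finish the cut peptides, were read together in 33 cells, *Cpe* alone in 33 and *Pam* alone in 1.

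The full set of *Pcsk1*, *Pcsk2*, *Cpe* and *Pam* was read in 11 cells (14.5%, 7.45% to 24.4%), namely 5 Pomc+ and 3 Ghost cells from CD and 2 Pomc+ cells and 1 Ghost cell from HFD. These 11 cells had between 488719 and 1452605 counts and between 3753 and 9808 genes, against a median of 2670.5 genes over all cells. At 40000 counts per cell the full set was read in 6.05 of 68 cells on average over 20 draws. One of them, a Pomc+ cell on CD, held 224.8 CPM of *Pcsk1*, 102 CPM of *Pcsk2*, 828 CPM of *Cpe* and 46.3 CPM of *Pam* beside 11514 CPM of *Pomc*. A median of 4 of the 7 genes had a count per cell in each of the 4 groups, and all 7 did in 4 cells.

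Among the 21 pairs of the 7 genes, rho over the 76 cells ran from 0.06 to 0.50. The highest were *Pcsk1* with *Scg5* (0.50), *Scg5* with *Cpe* (0.45) and *Scg5* with *Pam* (0.42). *Pcsk1* and its inhibitor gene *Pcsk1n* had 0.24, *Pcsk2* and its chaperone gene *Scg5* had 0.36, and *Pcsk1* and *Pcsk2* had 0.30. Given the number of genes with a count, *Scg5* with *Cpe* kept 0.34 and *Pcsk1* with *Scg5* 0.30, and *Pcsk1* with *Pcsk2* had 0.11.

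Outside the 7 genes, the transcripts that most resembled each one over the 76 cells were sought among genes with a count in at least 38 cells. For *Pcsk1n* they were *Zwint* (rho 0.75), *6330403K07Rik* (0.72) and *Tceal9* (0.71), against a median rho of 0.31 over 1564 genes. For *Scg5* they were *Atp1b1*, a subunit of the sodium pump (0.62), *Tro* (0.61) and *Ecel1* (0.61), against a median of 0.26. *Pcsk1* was most like *Ptprn*, which encodes a membrane protein of dense core granules (0.53), *Cspg5* (0.53) and *Hnrnpa2b1* (0.52). *Cpe* was most like *Pdia3*, which encodes a disulphide isomerase of the endoplasmic reticulum (0.57), *Prnp* (0.54) and *Cd81* (0.53). *Pam* was most like *Plagl1* (0.59), *Usp29* (0.56) and *Sccpdh* (0.55), *Pcsk2* like *Ggnbp2* (0.51), *Slc22a17* (0.46) and *Tecr* (0.46), and *Prcp* like *Saraf* (0.45), *Fam234b* (0.43) and *Sgip1* (0.41). These genes also had a rho of 0.27 to 0.71 with the number of genes with a count.

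Of a list of 22 further peptide processing and degrading genes, 18 had a count in fewer than 19 cells, 2 of these in none. The 4 others were *Ctsl*, a lysosomal protease that has been linked to prohormone cleavage, in 33 cells, the aminopeptidase gene *Rnpep* in 26, and *Cyb561*, which passes electrons for amidation, and the endothelin converting enzyme gene *Ece1* in 20 each. On CD, 15 of the 19 genes with a count had a lower mean in Ghost cells, beside 53.6% of all genes. Past 2-fold were 11 lower, beside 27.2% of all genes, and 2 higher, beside 20.8%, and the median log2 ratio was -1.04. Some of the 11 had no count in any Ghost cell on CD. In each comparison here, the shares of all genes cover only genes with a count in at least 10 cells. The list was not filtered in this way and holds genes read in as few as 1 cell. Its counts are therefore not directly comparable with these shares. On HFD 9 of 19 were lower in Ghost cells, beside 56% of all genes, with a median of 0.29. Past 2-fold were 7 lower, beside 28.8% of all genes, and 8 higher, beside 18.4%. In Pomc+ cells 12 of 20 genes with a count were lower on HFD, beside 47.5% of all genes, with a median of -1.39. There 11 were past 2-fold lower, beside 19.1% of all genes, and 6 past it higher, beside 23%. The count in Ghost cells was 5 of 18, beside 50.8% of all genes, with a median of 0.24. Here 4 were past 2-fold lower, beside 25.5% of all genes, and 6 past it higher, beside 26.1%. *Ctsl* had means of 85.9 CPM in Pomc+ and 150.1 CPM in Ghost cells on CD, and of 86.0 and 175 CPM on HFD.

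Over the 76 cells, the lists of other cell types followed the 7 genes unevenly. The microglial sum had a rho from -0.18 with *Pcsk1* to 0.24 with *Cpe*. The 7 neuronal genes had median sums of 2085 CPM in Pomc+ and 1463 CPM in Ghost cells on CD, and of 2278 and 2182.2 CPM on HFD, and their sum had a rho of 0.66 with *Pcsk1n*. Astrocyte genes on HFD summed to a mean of 1111 CPM in Pomc+ and 277 CPM in Ghost cells. The 6 oligodendrocyte genes had group medians from 129 to 310.1 CPM, with a rho between -0.08 and 0.16 with the 7 genes. Of the 4 tanycyte genes, *Rax* had no count in any cell, *Vim* had one in 44 cells, *Col23a1* in 6 and *Crym* in 4, and their sum had a rho of 0.31 with *Pcsk1n* and 0.27 with *Scg5*. The 4 endothelial genes had a summed median of 0 in each group. AgRP neuron genes, which mark the neighbouring neurons with the opposite effect on feeding, were read in 2 of 23 Pomc+ and 6 of 15 Ghost cells on CD. On HFD 15 of 19 Pomc+ and 10 of 19 Ghost cells had no count of them. The sum of the AgRP neuron genes had a rho of -0.28 with *Cpe* over all cells of both labels. The part of these transcripts in the levels of *Cpe* and *Pcsk1n* was not tested.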

How the data were processed

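Cells were patched, and their content was amplified with the SMART-Seq Single Cell kit, made into Nextera XT libraries and sequenced in pairs on a NovaSeq lane. The deposited raw table holds whole-number counts per Ensembl gene and cell; the authors' normalized signal is the same count divided by 1 size factor per cell (0.0157 to 9.05), as tested on the files. The submitters' processing notes name cutadapt 2.10, STAR 2.7.5a, DESeq2 and the build GRCm38 (mm10); the annotation and the counting program are not given in the sources used here. Symbols matched 52073 of 56980 identifiers.

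Values were computed in Python 3.11.15 with numpy 2.4.6, pandas 2.3.3 and scipy 1.17.1. Means of CPM were compared as ratios, called past 2-fold, beside all 9130 genes with a count in at least 10 cells, which 6 of the 7 genes pass. Thinning drew 40000 counts without replacement, 20 times, from each of the 68 cells with as many. The code was tested on simulated counts. The genes, lists and comparisons were chosen with earlier results of these data known. The genes named are the 7, *Pomc* and *Cartpt*, the 3 genes with a count in at least 38 cells and the highest rho with each of the 7, and genes of the further list with a count in at least 19 cells. No library was left out of the main values.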

Additional observations from a re-analysis of the deposited data

How the results depend on the processing

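No paired analysis was possible because the numbers in the labels are cell numbers, which no 2 groups share, and because no result comes from a test. The leave-outs of the cells numbered 699 to 712 and of cells without a *Pomc* count, and the partial correlations, were chosen after seeing the data. The causes of the changes below were not tested.

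For Ghost against Pomc+ cells on CD, 5 of the 7 genes were lower, but 2 with medians, and 3, 2 and 3 in the stretches 658 to 669, 684 to 692 and 699 to 712. The 2 genes past 2-fold lower became 5 with the deposited normalized values, 1 with the mean of log2(CPM + 10), 7 and 0 in the stretches 630 to 636 and 684 to 692, and 4 at a fold of 1.5. The 1 gene past 2-fold higher became 0 with deposited values, summed counts, both log means, without the last CD stretch, without the highest cell and in the stretch 630 to 636, and 2, 4 and 2 in the later stretches. With 1 cell left out, 4 to 6 were lower, 1 to 3 past 2-fold lower and 0 to 1 past it higher.

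On HFD, the 3 lower genes became 0 with summed counts, 1 with medians, and 1 and 6 in the stretches 637 to 657 and 713 to 720. The 0 past 2-fold lower became 1 without the genes of every cell and with deposited values, 1 and 5 in those stretches, and 2 at a fold of 1.5. The 0 past 2-fold higher became 2 without the genes of every cell, with summed counts and at a fold of 1.5, 1 with medians and without the highest cell, and 2 and 1 in those stretches. With 1 cell left out, 2 to 5 were lower, and 0 to 2 were past 2-fold in each direction.

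For HFD against CD in Pomc+ cells, the 4 lower genes became 2 with medians. The 2 past 2-fold lower became 1 with deposited values and without the highest cell, and 4 at a fold of 1.5. The 1 past it higher became 0 with deposited values, summed counts, medians, both log means and without the highest cell. With 1 cell left out, 4 to 5 were lower, 1 to 3 past 2-fold lower and 0 to 1 past it higher. In Ghost cells, the 3 lower genes became 6 without the highest cell. The 1 past 2-fold lower became 2 without the highest cell and at a fold of 1.5. The 2 past it higher became 1 without the genes of every cell and without the highest cell, and 0 with medians and both log means. With 1 cell left out, 2 to 4 were lower, 1 to 2 past 2-fold lower and 1 to 2 past it higher.

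Log2 ratios past 2-fold that changed sign were those of *Pcsk1* between labels on CD (-0.11 with summed counts, -0.048 without the highest cell, -0.048 to 1.77 with 1 cell left out, -3.46 in the stretch 630 to 636), *Pcsk2* between labels on CD (1.34 in the stretch 658 to 669), *Prcp* between labels on CD (1.74 in the stretch 684 to 692) and *Prcp* between diets in Pomc+ cells (-0.13 with the mean of log2(CPM + 1), -0.80 without the highest cell, -0.80 to 2.64 with 1 cell left out). Without the 8 cells under 40000 counts, *Pcsk1* between labels on HFD went from -0.87 to -0.26.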
